A study of Mus musculus with 8 samples.

Results

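The genes described here are 42 interferon-stimulated effector genes of the mouse, chosen by name: the Ifit, Oas, Mx and Ifitm families, interferon-induced GTPases, Parp genes with their partner Dtx3l, interferon regulatory factors, the Isg15 system and further effectors. They are 42 of the 34748 gene names on the array, and each had at least 1 probe there, with 58 probes in all. The choice was made with earlier results of these data known. Gene expression was measured in satellite cells, the stem cells of skeletal muscle, which were sorted from the hindlimbs of C57BL/6J mice at 3 to 4 months of age and grown in culture. The control group (eGFP, 4 arrays) carried a lentivirus that integrates an eGFP cDNA, and the other group (Hoxa9, 4 arrays) carried a lentivirus for Hoxa9 with eGFP. Both groups had thus been transduced and sorted for eGFP, 5 days after the virus was added, and neither was free of lentivirus, so nothing that both groups share can be seen in the comparison. Cells were a bulk population, and in bulk samples fewer cells of a type and less RNA per cell cannot be told apart. Whether each sample comes from its own animal is not stated in the labels, and a p-value therefore reflects only how much these 4 against 4 samples scatter.

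Interferons are secreted proteins that cells release on sensing foreign nucleic acid. Type I and type III interferons signal through paired receptors and Janus kinases to a complex that holds Stat2 and Irf9 and binds the interferon-stimulated response element (ISRE), while interferon gamma acts at the gamma-activated site (GAS). The induced genes include proteins that bind, cut or modify viral RNA, trap virions, block membrane fusion, or mark and disrupt the vacuoles of intracellular pathogens.

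The promoter sequences of 4 members called different between the groups are shown before the values. The first 3 have the lowest adjusted p among called members whose window holds an ISRE-like motif, and Dtx3l has the lowest among those without it. The motif searched was GAAA, any 2 bases, then GAAA, on either strand. Each sequence reads 5′ to 3′ on the strand of its gene, ends just before the transcript start (for Ifitm3, at the end of its second motif, 29 bases further), and has the motif in capitals. Sequences and positions are from RefSeq, build GRCm38.p6. Igtp lies on the plus strand (chr11:58199306-58199555), Ifit3 on the plus strand (chr19:34583279-34583528), Ifitm3 on the minus strand (chr7:141010716-141010994) and Dtx3l on the minus strand (chr16:35939028-35939277).
Igtp: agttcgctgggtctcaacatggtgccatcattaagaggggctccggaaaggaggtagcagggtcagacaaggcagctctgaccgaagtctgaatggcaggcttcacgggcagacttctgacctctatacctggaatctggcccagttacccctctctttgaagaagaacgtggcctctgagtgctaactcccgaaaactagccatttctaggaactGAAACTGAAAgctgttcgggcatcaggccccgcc
Ifit3: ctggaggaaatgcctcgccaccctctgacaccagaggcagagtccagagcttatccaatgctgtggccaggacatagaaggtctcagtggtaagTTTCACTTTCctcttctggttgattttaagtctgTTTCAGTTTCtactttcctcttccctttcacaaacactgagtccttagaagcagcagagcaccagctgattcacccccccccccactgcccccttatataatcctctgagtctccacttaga
Ifitm3: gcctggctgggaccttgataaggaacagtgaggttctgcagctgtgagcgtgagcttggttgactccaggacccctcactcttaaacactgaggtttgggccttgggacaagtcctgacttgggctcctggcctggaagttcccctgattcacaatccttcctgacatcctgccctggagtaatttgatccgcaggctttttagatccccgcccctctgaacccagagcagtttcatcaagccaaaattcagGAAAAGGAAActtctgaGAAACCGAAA
Dtx3l: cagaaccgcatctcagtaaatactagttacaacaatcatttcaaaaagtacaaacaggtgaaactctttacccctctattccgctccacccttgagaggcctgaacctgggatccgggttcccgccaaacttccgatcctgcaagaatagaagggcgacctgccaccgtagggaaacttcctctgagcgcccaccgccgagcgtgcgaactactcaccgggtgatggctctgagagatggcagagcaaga

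In Igtp the motif began 34 bases before the transcript start. Ifit3 held it at 156 and 122 bases before the start, both on the opposite strand. In Ifitm3 it began 2 and 19 bases past the start. Over all members, a window of 300 bases (250 before to 50 after the start) was available for 33, and 16 of them (48.5%) held the ISRE-like motif. Of all 27025 genes in the promoter table, 3.99% held it. All 6 GTPase genes with a window held the motif, as did 2 of 3 Ifit genes and 2 of 3 Ifitm genes. It was in 0 of 3 Irf genes and 0 of 2 Parp-group genes (Dtx3l and Parp12). Parp9 and Parp14, of the same group, had no window.

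Members with and without the motif were found among those called higher and among the others. It was in 5 of 12 members called higher with Hoxa9 (41.7%) and in 11 of the other 21 (52.4%), a difference in shares that was not tested. The other 21 include Ifitm3, called lower, and Oas3, Trim30a and Ifi44, which were too dim for the expression test. Of these genes, Ifi44 alone lacked the motif. The GAS-like motif TTCNNNGAA, which reads the same on both strands and may share bases with an ISRE-like match, was in 10 of 33 members (30.3%) and in 9.55% of all genes. A match is only a stretch of letters, and no binding was measured.

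A level here is the log2 processed signal of a gene's brightest probe relative to its array's 75th percentile, and a difference is the Hoxa9 mean minus the eGFP mean of such levels. A gene was tested if 4 or more of the 8 arrays read its probe as well above background, which held for 38 of the 42 members and for 27023 genes in all. Of the tested members, 32 were well above background on all 8 arrays. Called means an adjusted p under 0.05 from limma over all 27023 genes (two-sided, Benjamini-Hochberg).

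With Hoxa9, 15 of the 38 tested members were called higher and 1, Ifitm3, lower. Of all genes tested, 7.84% were called higher and 7.43% lower. As the members were chosen with earlier results of these data known, this contrast is a description and not an independent test. The median difference of the members was 0.60, and that of all genes was -0.07. Every Hoxa9 array lay above every eGFP array for 17 members, and below for 2, where 11.1% and 12.5% of all genes did so. One of the 17, Gbp7, had eGFP signals at background only. Positive differences were found for 27 of the 38 members and for 11964 of all 27023 genes tested. Those called higher were Parp9, Parp14 and Dtx3l, the regulators Irf7 and Irf9, the GTPases Igtp and Irgm1, Ifit3, Ifitm1, Isg15, Mx2, and Xaf1, Ifi35, Bst2 and Nmi.

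The mean level over the 38 members was -1.63, -1.59, -1.48 and -1.61 on eGFP arrays 1 to 4 and -1.11, -1.04, -0.95 and -0.91 on Hoxa9 arrays 1 to 4. The 2 groups did not overlap in this mean. Within the 3 slides, each of which held both groups, the Hoxa9 mean exceeded the eGFP mean by 0.70, 0.41 and 0.67, and within the 4 same-numbered pairs by 0.51, 0.55, 0.54 and 0.70. All 16 called members kept their sign in each of the 3 slides and each of the 4 pairs. None of these 16 had overlapping groups, and neither did the mean over the 38 members. The sign within a slide or pair was therefore fixed by that separation and adds no evidence. Replicates of the members scattered more in the eGFP group: its standard deviation was the larger for 26 of the 38 members, against 45.5% of all genes tested. It was the larger for 13 of the 15 members called higher, against 54% of all genes called higher.

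**Figure D1:**
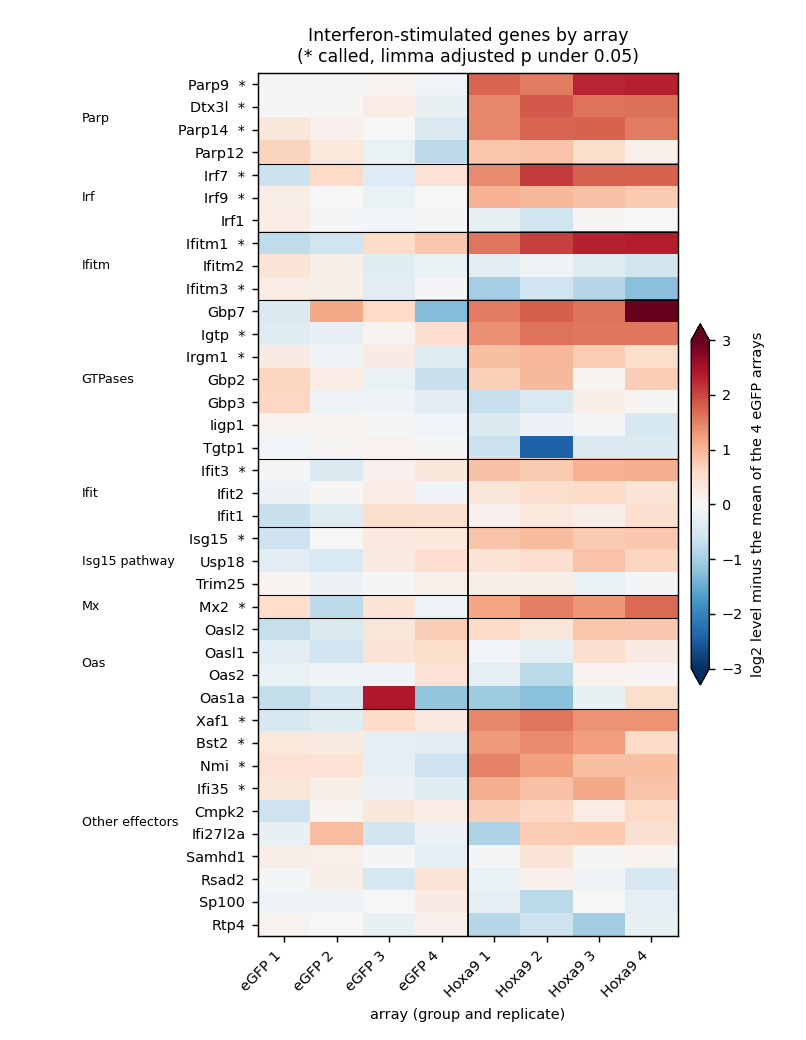
Level of the 38 tested members on each of the 8 arrays, shown as log2 level minus the gene's mean over the 4 eGFP arrays (red above, blue below, colour scale ending at 3 in either direction), grouped by family, with called genes starred. Parp9, Dtx3l and Parp14 are red on all 4 Hoxa9 arrays, and the dark cell of Gbp7 is Hoxa9 array 4.

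**Figure D2:**
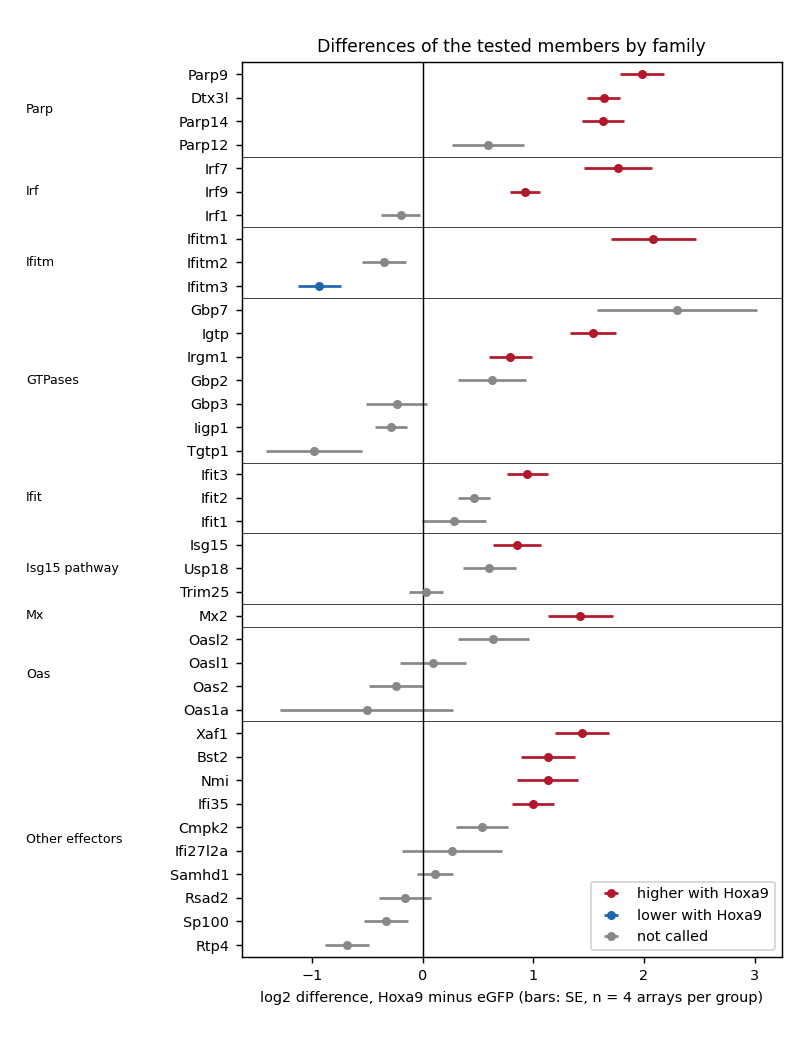
Log2 difference (Hoxa9 minus eGFP) of each tested member with its standard error (n = 4 arrays per group), grouped by family. Red points are the 15 members called higher, the blue point is Ifitm3, and grey points are not called, including all 4 tested Oas genes.

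The Parp group showed the lowest adjusted p-values of all members: 3 of its 4 genes were called higher. Dtx3l encodes a ubiquitin ligase that pairs with the protein of Parp9, a macrodomain protein of the ADP-ribosyltransferase family, in DNA damage and antiviral responses, and Parp14 encodes a mono-ADP-ribosyltransferase. In the RefSeq gene table (GRCm38.p6), Parp14, Dtx3l and Parp9 follow each other on chromosome 16 with no listed gene between them.

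Dtx3l was at -2.07, -2.005, -1.83 and -2.27 on eGFP arrays 1 to 4 and at -0.61, -0.21, -0.42 and -0.40 on Hoxa9 arrays 1 to 4. The groups lay far apart, and the highest eGFP array was number 3. The difference was 1.63 (SE 0.15, adjusted p 3.34e-04), a 3.11-fold higher signal. Its 3 probes, 2 of them dim, gave differences of 1.63, 1.22 and 1.62, and all were called higher over all probes. The probe used maps to chr16:35926655-35926714 on mm9, minus strand.

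Parp9 was at -2.04, -2.13, -1.99 and -2.15 on the eGFP arrays and at -0.33, -0.51, 0.21 and 0.26 on the Hoxa9 arrays. Its eGFP values were the tightest of the called members, and Hoxa9 arrays 3 and 4 stood above Hoxa9 arrays 1 and 2. The difference was 1.98 (SE 0.20, adjusted p 5.015e-04), 3.95-fold. A further Parp9 probe, which the file assigns to another transcript, gave a difference of 0.20 with an adjusted p over all probes of 0.673. The probes of this gene (chr16:35972577-35972636 and chr16:35968243-35968302 on mm9, plus strand) thus differ more than those of any other member with several kept probes.

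Parp14 was at -1.65, -1.86, -1.99 and -2.43 on the eGFP arrays and at -0.54, -0.24, -0.20 and -0.43 on the Hoxa9 arrays, with no overlap. Its difference was 1.63 (SE 0.19, adjusted p 9.57e-04), 3.09-fold. Parp12, which encodes another mono-ADP-ribosyltransferase and lies on chromosome 6, had a difference of 0.59 (SE 0.32, adjusted p 0.288) and its groups overlapped. eGFP array 1, at -1.71, was above Hoxa9 arrays 3 and 4, at -1.85 and -2.23.

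**Figure D3:**
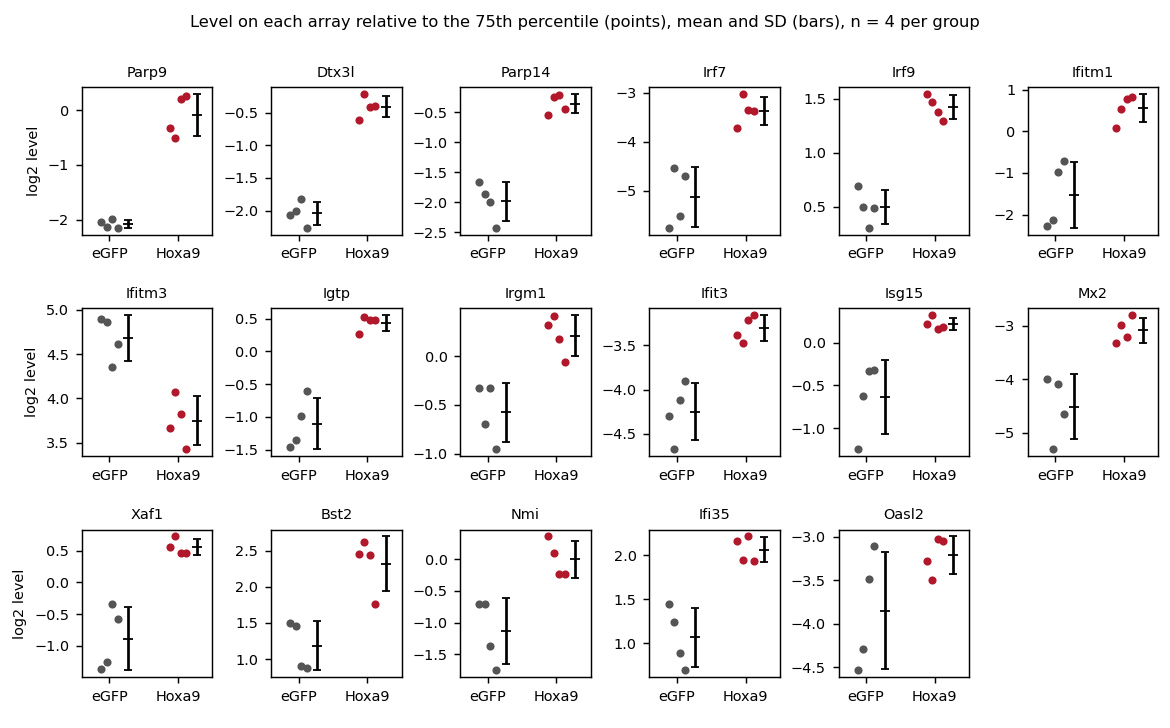
Level of the 16 called members and of Oasl2, the Oas gene of lowest adjusted p, on each array (points, log2 relative to the array's 75th percentile), with the group mean and SD beside them (n = 4 per group, vertical axes differ between genes). The groups are apart for the 16 called members and overlap for Oasl2.

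Of the 3 interferon regulatory factors, Irf9 and Irf7 were called higher and Irf1 was not called. Irf9 is the DNA-binding subunit of the complex that binds the ISRE. It was at 0.70, 0.50, 0.30 and 0.49 on the eGFP arrays and at 1.55, 1.47, 1.38 and 1.29 on the Hoxa9 arrays. The groups were well separated, and the difference was 0.93 (SE 0.14, adjusted p 0.00305), 1.90-fold.

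Irf7 encodes the factor that amplifies type I interferon production and is itself interferon-induced. It was at -5.77, -4.53, -5.52 and -4.69 on the eGFP arrays, where only 2 of 4 arrays were well above background, and at -3.72, -3.02, -3.35 and -3.37 on the Hoxa9 arrays, where all 4 were. The lowest Hoxa9 array was above the highest eGFP array. The difference was 1.76 (SE 0.31, adjusted p 0.00604), 3.39-fold, and the probe (mm9, chromosome 7, minus strand) is placed by the files from 148450664 to 148451014. Irf1, a factor induced by interferon gamma, was well above background on all arrays and had a difference of -0.20 (SE 0.18, adjusted p 0.504). Its Hoxa9 arrays ranged from 1.56 to 2.21 and its eGFP arrays from 2.08 to 2.39.

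The 3 Ifitm genes, which encode small membrane proteins that hinder fusion of viruses with cell membranes, went in different directions. They lie side by side on chromosome 7, in the order Ifitm2, Ifitm1, Ifitm3, with no listed gene between them. Ifitm1 was called higher, Ifitm3 lower, and Ifitm2 was not called.

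Ifitm1 was at -2.28, -2.14, -0.99 and -0.72 on the eGFP arrays and at 0.08, 0.53, 0.78 and 0.82 on the Hoxa9 arrays. In both groups arrays 3 and 4 were higher than arrays 1 and 2, and the groups did not overlap. The difference was 2.08 (SE 0.38, adjusted p 0.00785), 4.24-fold, and a second probe shifted by 1 base gave 1.98. The probe used lies at chr7:148155659-148155718 (mm9, plus strand).

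Ifitm3 was at 4.90, 4.87, 4.35 and 4.61 on the eGFP arrays and at 3.66, 4.08, 3.83 and 3.43 on the Hoxa9 arrays. Every Hoxa9 array lay below every eGFP array, and the signal stayed high above background in both groups. The difference was -0.94 (SE 0.20, adjusted p 0.0137), a 1.91-fold lower signal, from a single probe at chr7:148195591-148195650 (mm9, minus strand). With the slide as a block the difference was -0.92 and the adjusted p 0.0573. Ifitm2, also measured by a single probe, had a difference of -0.35 (SE 0.20, adjusted p 0.312), with eGFP arrays between 3.36 and 4.12 and Hoxa9 arrays between 3.18 and 3.59.

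Among the 7 GTPase genes, Igtp and Irgm1 were called higher and 0 were called lower. These genes encode immunity-related GTPases (Igtp, Irgm1, Iigp1 and Tgtp1) and guanylate-binding proteins (Gbp2, Gbp3 and Gbp7), which act on the vacuoles of intracellular pathogens. Igtp was at -1.47, -1.35, -0.99 and -0.60 on the eGFP arrays and at 0.26, 0.52, 0.47 and 0.48 on the Hoxa9 arrays. The groups were clearly apart, with a difference of 1.54 (SE 0.21, adjusted p 0.00178), 2.90-fold.

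Irgm1, which regulates the effector GTPases, was at -0.33, -0.70, -0.33 and -0.95 on the eGFP arrays and at 0.32, 0.42, 0.18 and -0.06 on the Hoxa9 arrays. The groups did not overlap, although Hoxa9 array 4 came close to eGFP arrays 1 and 3. The difference was 0.79 (SE 0.19, adjusted p 0.0275), 1.73-fold, and its other probe gave 0.76. With the slide as a block the adjusted p was 0.0623, and without eGFP array 2 or 4 or Hoxa9 array 1, 2 or 3 it lay between 0.0567 and 0.0825.

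Gbp7 was the least stable of the GTPase genes. It was at -6.80, -5.21, -5.76 and -7.65 on the eGFP arrays, none of them well above background, and at -4.80, -4.56, -4.74 and -2.13 on the Hoxa9 arrays, all of them well above background. Hoxa9 array 4 stood far above the other Hoxa9 arrays. Gbp7 passed the filter through the Hoxa9 arrays alone, its measured means were -6.35 and -4.06, and its fitted difference of 2.30 (SE 0.73, adjusted p 0.0713), taken against signal at background, was not called. For a lower bound, each eGFP array was set at its own Gbp7 signal or its lowest well-above-background signal, whichever was higher. Against the mean of these, the Hoxa9 signal was at least 3.01-fold higher, and at least 1.93-fold without Hoxa9 array 4. The adjusted p was 0.0439 with the slide as a block and 0.144 in the fit blocked by replicate number.

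Tgtp1 had the most negative difference of all tested members, -0.98 (SE 0.43, adjusted p 0.184), and was not called. Its eGFP arrays were between -2.32 and -2.14, and its Hoxa9 arrays were at -2.89, -4.68, -2.67 and -2.67. All Hoxa9 arrays were below all eGFP arrays, with array 2 far below the rest. Gbp2 (0.63, adjusted p 0.240), Iigp1 (-0.28, adjusted p 0.248) and Gbp3 (-0.24, adjusted p 0.603) had overlapping groups and were not called. Gbp7, Gbp3 and Gbp2 lie on chromosome 3 with only Gbp2b listed between them. Tgtp1 has a near-identical neighbouring copy, Tgtp2, and the probe's ability to tell them apart was not tested.

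The 3 Ifit genes encode proteins with tetratricopeptide repeats, some of which bind viral RNA that lacks the host's cap methylation. Their differences were all positive, and Ifit3 alone was called. Ifit3 was at -4.30, -4.68, -4.12 and -3.90 on the eGFP arrays and at -3.38, -3.47, -3.21 and -3.16 on the Hoxa9 arrays. The groups did not overlap, and the difference was 0.95 (SE 0.19, adjusted p 0.0113), 1.93-fold. After normexp background correction it was 0.42 with an adjusted p of 0.0839. The near-identical gene Ifit3b is listed in the same cluster on chromosome 19, and whether the Ifit3 probe reads it was not tested.

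Ifit2 was at -2.04, -1.82, -1.64 and -1.98 on the eGFP arrays and at -1.50, -1.35, -1.29 and -1.48 on the Hoxa9 arrays. The groups did not overlap, but the difference of 0.47 (SE 0.14, adjusted p 0.0635) did not pass. Ifit1 had a difference of 0.29 (SE 0.29, adjusted p 0.548), and eGFP arrays 3 and 4, at -4.28 and -4.29, were as high as the Hoxa9 arrays, between -4.66 and -4.29.

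Isg15 encodes a ubiquitin-like protein that is attached to other proteins, Usp18 removes it and dampens receptor signalling, and Trim25 encodes a ubiquitin and Isg15 ligase. Isg15 was at -1.24, -0.63, -0.33 and -0.32 on the eGFP arrays and at 0.21, 0.32, 0.16 and 0.18 on the Hoxa9 arrays. The Hoxa9 arrays were close together and above the more scattered eGFP arrays. The difference was 0.85 (SE 0.22, adjusted p 0.0328), 1.80-fold. In the fit blocked by replicate number the adjusted p was 0.0543, with the slide as a block it was 0.0834, and without eGFP array 2 or any Hoxa9 array it lay between 0.0638 and 0.0829. A dimmer Isg15 probe gave 0.97 with an adjusted p over all probes of 0.0547.

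Usp18 had a difference of 0.60 (SE 0.24, adjusted p 0.148), with eGFP arrays from -4.57 to -3.58 and Hoxa9 arrays from -3.68 to -3.24. Trim25 was well above background on all arrays and had a difference of 0.03 (SE 0.15, adjusted p 0.909). Neither was called, and for both the groups overlapped on the probe used. The other kept Trim25 probe gave 0.36 and was not called (adjusted p over all probes 0.108). On it, every Hoxa9 array (4.58 to 4.84) lay above every eGFP array (4.30 to 4.37).

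Mx2 belongs to a family of dynamin-like GTPases, some of which restrict viruses. It was at -3.99, -5.30, -4.09 and -4.65 on the eGFP arrays, of which 3 were well above background, and at -3.32, -2.99, -3.22 and -2.80 on the Hoxa9 arrays. The groups did not overlap. The difference was 1.43 (SE 0.30, adjusted p 0.0137), 2.69-fold, and with the slide as a block it was 1.40 with an adjusted p of 0.0546. Its neighbour Mx1 was not well above background on any of the 8 arrays, with levels between -8.35 and -6.88. C57BL/6 mice are known to carry a deletion in Mx1, and whether it covers the probe was not determined.

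None of the 4 tested Oas genes was called in either direction by limma, 0 of them had an unadjusted p under 0.05, and none passed in any alternative setting. The family encodes 2′-5′-oligoadenylate synthetases, which are activated by double-stranded RNA and switch on RNase L, and related proteins without that activity. Oasl2 had the lowest adjusted p. It was at -4.53, -4.29, -3.48 and -3.10 on the eGFP arrays and at -3.27, -3.50, -3.03 and -3.05 on the Hoxa9 arrays.

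eGFP arrays 3 and 4 of Oasl2 lay among the Hoxa9 arrays, and the difference was 0.64 (SE 0.32, adjusted p 0.246). Oas2 had a difference of -0.24 (SE 0.24, adjusted p 0.551) and Oasl1 one of 0.09 (SE 0.30, adjusted p 0.859). Oas1a, well above background on 2 arrays of each group, had a difference of -0.51 (SE 0.78, adjusted p 0.699), and eGFP array 3 stood apart at -2.37. Oas3 was well above background on 1 array of each group and was not tested.

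The other 12 effectors included 4 called higher, and 0 of the 10 tested were called lower. Xaf1, which encodes a binding partner of the apoptosis inhibitor Xiap, was at -1.36, -1.26, -0.34 and -0.58 on the eGFP arrays and at 0.56, 0.73, 0.46 and 0.47 on the Hoxa9 arrays. The groups were well apart, with a difference of 1.44 (SE 0.25, adjusted p 0.00560), 2.71-fold. A dimmer Xaf1 probe, well above background on 1 eGFP array, gave 0.62 and was not called (adjusted p over all probes 0.243).

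Ifi35 and Nmi encode related proteins that bind each other. Ifi35 was at 1.44, 1.24, 0.89 and 0.69 on the eGFP arrays and at 2.16, 1.95, 2.21 and 1.93 on the Hoxa9 arrays, with no overlap. Its difference was 0.996 (SE 0.19, adjusted p 0.00971), 1.99-fold. Nmi was at -0.70, -0.71, -1.37 and -1.75 on the eGFP arrays and at 0.36, 0.09, -0.24 and -0.23 on the Hoxa9 arrays. In both groups arrays 1 and 2 were above arrays 3 and 4, and the groups did not overlap. Its difference was 1.13 (SE 0.28, adjusted p 0.0271), 2.19-fold. Without eGFP array 3 or 4 or Hoxa9 array 1 or 2 the adjusted p lay between 0.0509 and 0.0766.

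Bst2, or tetherin, encodes a membrane protein that holds budding enveloped viruses at the cell surface. It was at 1.504, 1.46, 0.91 and 0.87 on the eGFP arrays and at 2.46, 2.61, 2.44 and 1.76 on the Hoxa9 arrays. Hoxa9 array 4 was the lowest of its group and still above all eGFP arrays. The difference was 1.13 (SE 0.25, adjusted p 0.0162), 2.19-fold, and the adjusted p was 0.0611 with the slide as a block and 0.0507 without Hoxa9 array 1.

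Rtp4, which encodes a chaperone that brings certain receptors to the cell surface, had a difference of -0.68 (SE 0.20, adjusted p 0.0546) and was not called. With the replicate number as a block its adjusted p was 0.0421. In that fit 14 members were called higher and 2 lower, beside 8.51% and 7.89% of all genes. Its Hoxa9 arrays were at -0.02, 0.21, -0.21 and 0.61, and its eGFP arrays lay between 0.61 and 0.96. Only Hoxa9 array 4 reached the eGFP range, and without it the difference was -0.83 and the adjusted p 0.0194.

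The 5 remaining tested effectors were not called, and their groups overlapped on the probe used. Rsad2, or viperin, which makes a chain-terminating antiviral nucleotide, had a difference of -0.16 (adjusted p 0.679). Its neighbour on chromosome 12, the nucleotide kinase gene Cmpk2, had one of 0.54 (adjusted p 0.179). A dimmer Cmpk2 probe, well above background on 2 eGFP arrays, gave 0.81 without overlap of the groups. It was not called either (adjusted p over all probes 0.170). Samhd1, a nucleotide phosphohydrolase that limits reverse transcription, had a difference of 0.11 (adjusted p 0.683). Its 3 kept probes gave 0.11, 0.36 and -0.69, the only case of both signs among the 10 members with several kept probes, and none of them was called. The nuclear body gene Sp100 (-0.33, adjusted p 0.334) and Ifi27l2a (0.27, adjusted p 0.727) completed the group. Trim30a was not well above background on any array and Ifi44 on 1, Hoxa9 array 4, so neither was tested.

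**Figure D4:**
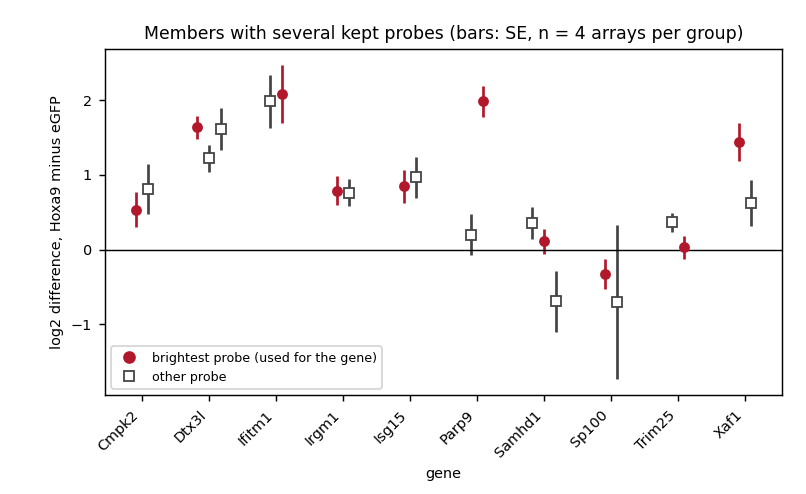
Log2 difference (Hoxa9 minus eGFP, with SE, n = 4 arrays per group) of every kept probe of the 10 members with several kept probes. Filled circles are the brightest probe, used for the gene, and open squares are the others; the Parp9 probes (1.98 and 0.20) lie furthest apart.

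The rest of the interferon pathway was described by 5 lists, for which the same test and the same background apply. These lists too were chosen with earlier results of these data known. Of 11 interferon ligand genes, 10 were on the array, 5 were tested and 0 were called by limma, with 1, Ifna2, lower at an unadjusted p under 0.05. Differences of those 5 ran from -0.78 (Ifna2) to 0.56 (Ifnab), with a median of 0.30. Ifnb1, the main type I interferon of non-immune cells, was well above background on 1 array of each group. Ifng was not above background on any array, and Ifna4 was above it on 0 eGFP and 3 Hoxa9 arrays, at -5.44 to -4.60 over the 4 Hoxa9 arrays.

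Of the 6 receptor genes, 3 were called higher and 0 lower, with a median of 0.60. Ifnlr1, the specific chain of the type III interferon receptor, was at -5.44, -6.16, -4.63 and -7.28 on the eGFP arrays, of which 1 was well above background, and at -3.27, -3.26, -2.93 and -2.76 on the Hoxa9 arrays. The groups did not overlap, and the fitted difference was 2.82 (SE 0.50, adjusted p 0.00680), most of it against signal not well above background. With normexp background correction and an offset of 50 it was 0.79 (adjusted p 0.00450). Il10rb, the other chain of that receptor, rose by 1.005 (SE 0.19, adjusted p 0.00808), and Ifngr2, a chain of the interferon gamma receptor, by 0.87 (SE 0.18, adjusted p 0.0124). The type I receptor genes Ifnar1 (0.17, adjusted p 0.547) and Ifnar2 (0.32, adjusted p 0.221) were not called.

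Of 14 tested signal transduction genes, 4 were called higher and 2 lower, with a median of 0.30. Irf8, a factor best known from myeloid cells, had the lowest adjusted p and was lower by -1.79 (SE 0.13, adjusted p 1.16e-04). Jak2, a kinase of the interferon gamma receptor, rose by 1.10 (SE 0.16, adjusted p 0.00262), and Stat3 by 1.82 (SE 0.36, adjusted p 0.0113). Stat2, a partner of Irf9 in the ISRE-binding complex, rose by 0.91 (SE 0.20, adjusted p 0.0190), and Jak1, a kinase of the interferon receptors, by 0.59 (SE 0.16, adjusted p 0.0371), both named after their values were seen. In the fit blocked by replicate number both lost their call (adjusted p 0.0505 and 0.0662), which left 2 genes of the list called higher.

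Of 15 tested nucleic acid sensors and adaptors, 5 were called higher and 1 lower, with a median of 0.16. Ifih1, the double-stranded RNA sensor Mda5, was at -3.12, -3.22, -2.71 and -2.91 on the eGFP arrays and at 0.03, 0.04, -0.05 and 0.13 on the Hoxa9 arrays. The groups were far apart, and the difference was 3.03 (SE 0.15, adjusted p 4.05e-05). Ddx58, the RNA sensor RIG-I, rose by 1.68 (SE 0.15, adjusted p 3.15e-04), and Sting1 (named Tmem173 in the files), the adaptor of the DNA-sensing pathway, rose by 0.79 (SE 0.13, adjusted p 0.00489). The gene called lower, named after its values were seen, was Cgas (named Mb21d1 in the files), the DNA sensor of that pathway, at -0.79 (SE 0.17, adjusted p 0.0139).

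A further list held 42 other interferon-stimulated genes, of which 38 were tested, 9 were called higher and 4 lower. Their median difference was 0.36. Irgm2, a regulatory immunity-related GTPase like Irgm1, rose by 2.35 (SE 0.23, adjusted p 4.15e-04), the immunoproteasome subunit gene Psmb8 by 1.78 (SE 0.19, adjusted p 5.59e-04), and Trim34a by 2.29 (SE 0.25, adjusted p 7.13e-04). The 4 genes called lower, named after their values were seen, were Apol9b, Ifi204, Gbp4 and Apol9a, with differences from -1.62 to -1.05. Apol9a and Apol9b are near-identical copies whose probes may share signal.

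**Figure D5:**
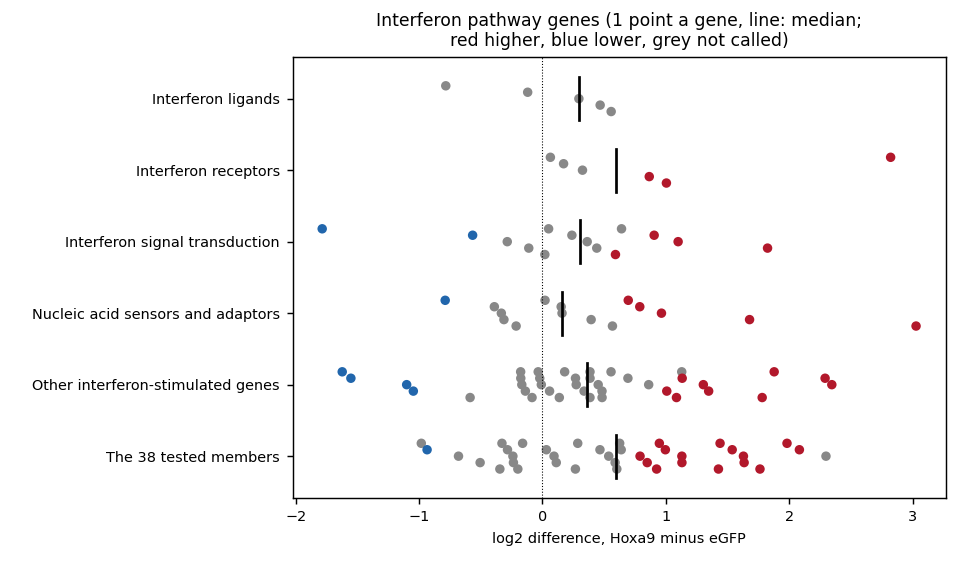
Log2 difference (Hoxa9 minus eGFP) of each tested gene in 5 lists of the interferon pathway and of the 38 tested members, 1 point a gene, with the list's median as a vertical line (red called higher, blue called lower, grey not called). The ligand list holds grey points only, and the point furthest right is Ifih1 at 3.03.

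Of an array's non-control spots, 69.6% to 73.0% stood well above background on eGFP arrays and 72.2% to 77.5% on Hoxa9 arrays. The highest share was on Hoxa9 array 4. Precision is limited by having 4 arrays a group. The brighter Hoxa9 probe, which checks the label, was at -0.98, -0.71, -0.14 and -0.04 on the eGFP arrays and at 5.31, 5.44, 5.48 and 5.81 on the Hoxa9 arrays, while a second Hoxa9 probe moved the other way by -1.74. All 7 satellite cell and myoblast markers were well above background on every array. All had negative differences and 5 were called lower (Vcam1 at -2.59, Pax7 at -1.30), 4 of them in the fit blocked by replicate number, where Myf5 had an adjusted p of 0.0528. Their summed signal, in units of the 75th percentile, was 244 to 341 on the eGFP arrays and 155 to 180 on the Hoxa9 arrays.

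Markers of other cell types moved less uniformly beside the members. Of 10 macrophage and leukocyte markers, 8 were tested and 0 were called by limma, and 0 had an unadjusted p under 0.05. Their summed signal was 34.8 to 55.4 in the eGFP group and 35.5 to 48.9 in the Hoxa9 group. The defining leukocyte gene Ptprc was well above background on 0 eGFP and 2 Hoxa9 arrays, and Lyz2 on 0 and 1. Among 7 fibroblast markers, Ly6a, also known as Sca-1, was called higher by 4.55, while the other 6 were not called and ran from -2.60 (Lum) to 1.62 (Thy1), with a list median of 0.13. Their summed signal was 14.9 to 23.7 against 21.9 to 53.7. In the fit blocked by replicate number Thy1 was called higher (adjusted p 0.0210) and Lum lower (0.0439). Of 4 smooth muscle markers Cnn1 was called higher by 2.57, with sums of 19.4 to 28.0 against 8.97 to 25.4, and the blocked fit also called Myh11 higher (adjusted p 0.0449). None of the 3 tested endothelial markers was called (1, Cdh5 at -2.06, had an unadjusted p under 0.05 and a blocked adjusted p of 0.0453; sums 8.90 to 14.5 against 11.5 to 17.6), and Tek and Emcn were each above background on at most 1 array of a group. All these sums are of unlogged signal, so the brightest marker of a list weighs most. Itga7, Itgam, Tagln and Kdr were the brightest of their lists on every array. The smooth muscle sum mainly follows Tagln (difference -0.67), although 3 of the 4 differences were positive. The endothelial sum mainly follows Kdr (0.21), although the list's median difference was -0.56. The part of the markers of these cell types in the results for the members was not tested.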

How the data were processed

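RNA of 4 eGFP and 4 Hoxa9 samples was measured on 1-colour Agilent mouse arrays. The intensity values are the authors' deposited scanner output, made with Agilent Feature Extraction 10.7.3.1 per the file headers, with background subtraction and detrending inside an array and no scaling across arrays. Probe positions are on mm9 per the file headers. The other deposited table of processed values holds, apart from lost decimal points in 86.1% to 87.3% of its cells, log2 signals that differ from the scanner values by a constant per array. It served as an alternative.

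Signals were taken to log2 after control and outlier spots were removed (180 of 55681 probes), repeated spots were averaged and each array's 75th percentile was subtracted. Probes well above background on at least 4 arrays were kept (40757), with the brightest probe representing a gene. The test was limma 3.58.1 (R 4.3.3; lmFit, eBayes, group only, Benjamini-Hochberg, threshold 0.05), checked on simulated data. Members and lists were chosen with earlier results of these data known. Named genes are called members, the lowest adjusted p of each subgroup, up to 3 called genes of each pathway list, and Hoxa9; further genes serve to account for all members and lists. One pathway list gene is not reported here, and other list genes without a value in the text enter only as counts. An "at least" fold sets the bright group's mean against, on each dim array, its own signal or the array's lowest well-above-background signal, whichever is higher.

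The groups share experiment numbers in their titles. Deviations from group means correlated at 0.143, 0.228, 0.130 and 0.185 in same-numbered pairs, all above 0.1, although 2 unlike pairs reached 0.189 and 0.137. Pairing by number was therefore considered, but the main test used the group only, so its p-values, standard errors and calls are unpaired. The replicate block was an alternative, as were the slide as a block, other normalizations, background corrections and filters, the mean of a gene's probes, updated names, an intensity-trended robust prior, and leaving out each array. No protein table was used here, so no protein sequences are shown.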

Additional observations from a re-analysis of the deposited data

Results flagged for a closer look

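Each group of 4 arrays of each tested member, 76 in all, was screened for an array standing apart from the other arrays, by Dixon's critical value for the gap's share of the group's range. Chance alone marks about 1 in 20 such groups, and 4 were marked. Gbp7 was at -2.13 on Hoxa9 array 4, where the nearest Hoxa9 array was at -4.56. Irf1 was at 2.39 on eGFP array 1, with the nearest eGFP array at 2.11. Oas2 was at -2.81 on eGFP array 4, with the nearest at -3.33. Tgtp1 was at -4.68 on Hoxa9 array 2, with the nearest at -2.89.

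Of the member probes too dim for the tests, 3 were well above background on some Hoxa9 array and on no eGFP array. Ifi44, the antiviral cytoskeleton-associated gene, reached -5.15 on Hoxa9 array 4, the only array where it was well above background. A second Irf1 probe reached -5.31 on Hoxa9 array 2, level with its brightest eGFP array. A second Oas1a probe was at -2.05 and -1.60 on Hoxa9 arrays 2 and 4 and at -6.04 or lower on the other 6 arrays, a pattern that the Oas1a probe used for the tests, at -6.01 and -4.25 on those 2 arrays, did not share.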

How the results depend on the processing

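Of the 16 called members, 9 passed in every alternative that tested them: Dtx3l, Parp9, Parp14, Igtp, Irf9, Ifitm1, Xaf1, Ifi35 and Irf7. No called member changed sign in any of the 19 alternatives. The number of members called higher was 12 with a median shift and 12 with the slide as a block, and 11 to 15 when single arrays were left out. The number called lower was 0 with the slide as a block and 2 with probes well above background on all arrays, with an intensity trend and robust prior, and with the replicate block, and 1 to 2 when single arrays were left out. Where it was 2, the gained gene was Rtp4 (adjusted p 0.0404, 0.0349 and 0.0421, and 0.0194 without Hoxa9 array 4). The replicate block took the call from Isg15 and gave it to Rtp4, and changed no other member's call. The members' median was 0.50 to 0.65 when single arrays were left out and 0.32 with normexp, which adds an offset of 50: there Irf7 was 0.63, Mx2 0.61 and Gbp7 0.56, and Ifit3 lost its call. With the mean of a gene's probes Parp9 was 1.09 and Xaf1 1.03, both called. The median shift removed Bst2, Irgm1 and Nmi (adjusted p 0.0601, 0.105 and 0.0730), and no filter on dim probes removed Isg15 (0.0515). Irf7 and Mx2 left the test under the strictest filter. For Bst2, Irgm1, Nmi, Isg15 and the other calls that changed with the normalization, a block or an array left out, the cause was not tested. Dimness left Mx1, Oas3, Ifi44 and Trim30a unmeasured.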
